A study of Arabidopsis thaliana with 12 samples.

Results

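The response of smeb-2 seedlings to salt was taken from 4 of the 12 libraries of the study: 2 of smeb-2 seedlings kept in 200 mM NaCl for 6 h and 2 of untreated smeb-2 seedlings. Of the 33559 genes in the expression table, 20251 had an FPKM (a fragment count divided by transcript length and library size) of at least 1 in 2 or more of the 12 libraries, and these genes are the ones described. Seedlings were 12 days old, were grown on 0.5× Murashige and Skoog medium and were harvested whole. smeb-2 is a line of Arabidopsis thaliana in the Col-0 background that is named for the gene SmEb; smeb-1, a second such line, and wild-type Col-0 were treated alike, with 2 salt-treated and 2 untreated libraries each. The labels do not give the kind of allele in either line, nor do they say that replicate libraries stem from separate plants, so p-values measure only the spread between libraries. Values of a group are always given for its library 0 and then its library 1, as the table numbers them. The labels call the controls untreated for 6 h, while the protocol speaks of 0 or 6 h, so the controls may have been taken at another hour of the day, and then hour and salt cannot be told apart. One description field of the treated samples names Cd, whereas their titles and treatment fields name salt, which was followed here.

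SmEb encodes an E subunit of the Sm ring, the set of small proteins that sits on spliceosomal small nuclear RNAs and is needed for intron removal. Salt slows water uptake, brings in sodium and raises the hormone abscisic acid. The hormone binds PYR/PYL receptors, which then hold clade A PP2C phosphatases; SnRK2 kinases are released and activate ABF transcription factors, and these bind the ABRE element in front of genes for late embryogenesis abundant (LEA) proteins, dehydrins and osmolyte enzymes. In the same hours seedlings usually lower transcripts for light harvesting and growth.

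SmEb is gene AT2G18740, on the plus strand of chromosome 2 from 8123195 to 8125078 in TAIR10. It stood at 1.92 and 2.04 FPKM in salt-treated smeb-2, against 4.93 and 6.24 FPKM in control smeb-2. The 2 groups did not overlap, and the difference on log2(FPKM + 1) was −1.14 ± 0.0919 (SE; adjusted p = 4.21e-06 by limma, adjusted over all 20251 genes, as are all adjusted p below). In Col-0 the transcript stood at 73.3 and 76.1 FPKM in salt and at 58.9 and 55.1 FPKM in control. The salt response of smeb-2 was therefore 1.52 ± 0.13 log2 units below that of Col-0 (difference −1.52, adjusted p = 0.000372). SmEa, the near-identical gene for the other E subunit, had 25.5 and 26.0 FPKM in salt and 33.3 and 32.2 FPKM in control smeb-2 (−0.33 ± 0.0937, adjusted p = 0.0114), a call lost without control library 0 or salt library 0 (−0.31 and −0.32). Whether reads of SmEa were counted for SmEb was not tested, so the low SmEb values of smeb-2 are uncertain. RCD1, a nuclear protein that binds transcription factors and whose splicing the study is about, had 92.7 and 97.5 FPKM in salt and 118 and 118 FPKM in control (−0.31 ± 0.11, adjusted p = 0.0332), a call lost without any one of the 4 libraries (between −0.35 and −0.27).

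FPKM summed to 761693 and 776714 in the salt libraries and to 838767 and 848257 in the control libraries of smeb-2, and low values put the relative depth at 0.841 and 0.845 in salt and at 1.73 and 0.927 in control. Read totals were not at hand. The 2 libraries of a group differed by a median of 0.0933 log2 units per gene in salt and 0.0847 in control; the 2 salt-treated Col-0 libraries were farther apart (0.167). Transcripts were spread more evenly in salt: the 100 highest genes held 18.4% and 18.7% of all FPKM in salt, against 27.3% and 27.6% in control. Whether depth or this evenness had a part in any change below was not tested; under 2 other scalings the median of all genes moved by less than 0.1. Of markers for the organs that whole seedlings hold, 8 of 10 root markers and 9 of 9 leaf and guard cell markers passed the filter on low values; the root list summed to 59.3 and 62.0 FPKM in salt and 48.3 and 54.7 in control, and the leaf list to 189 and 195 FPKM in salt and 178 and 184 in control. In such bulk tissue fewer cells of a type and less RNA per cell cannot be told apart.

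Most of the transcriptome of smeb-2 differed between salt and control libraries. Of the 20251 genes, 12085 (59.7%) passed an adjusted p of 0.05, 6482 higher in salt (32.0%) and 5603 lower (27.7%). Most of these changes were small: the median gene moved by 0.03 log2 units, 5% of genes fell below −1.09 and 5% stood above 1.49. Changes of at least 2-fold on log2(FPKM + 1) were called upward for 1815 genes (8.96%) and downward for 1186 (5.86%), changes of at least 4-fold for 568 (2.80%) and 247 (1.22%), and changes of at least 8-fold for 186 (0.918%) and 64 (0.316%). The scale of log2(FPKM + 1) understates the change of genes with low values. In 83.0% of all genes the salt and control libraries did not overlap, so that non-overlap by itself sets few genes apart. Counts of list members called higher or lower below are to be read against the 32.0% and 27.7% of all genes. Lists and members were chosen with earlier results of these data known, so an excess over these shares is a description only.

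**Figure D1:**
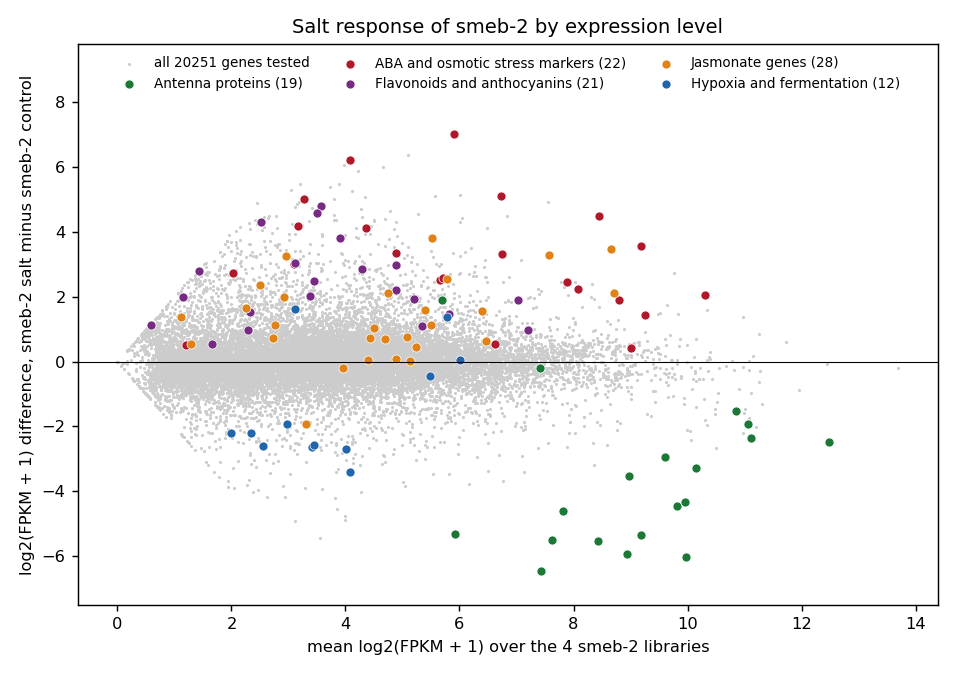
Each point is a gene: the x axis gives its mean log2(FPKM + 1) over the 4 smeb-2 libraries and the y axis the difference between salt and control. Grey points are all 20251 genes; coloured points are 5 gene lists, of which the abscisic acid and flavonoid genes lie above 0 and most antenna and hypoxia genes below it.

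The 10 largest rises included LEA and other genes known from water deficit. RD20, a caleosin of lipid droplets, had 604 and 765 FPKM in salt, against 5.22 and 3.43 FPKM in control (7.02 ± 0.19, adjusted p = 6.52e-09), the largest rise of any gene. LEA4-5, an LEA protein that shields membranes and enzymes during drying, had 139 and 151 FPKM in salt, against 0.701 and 1.22 FPKM in control (6.23 ± 0.434, adjusted p = 1.53e-06). LEA7 had 77.3 and 93.3 FPKM in salt and 0.701 and 1.51 in control (5.38 ± 0.768, adjusted p = 0.000197). Salt and control libraries were far apart in each of these genes, and the controls of both LEA genes lay near 1 FPKM. AT3G02480, another LEA family gene, had 307 and 317 FPKM in salt and 2.46 and 3.12 in control (6.37 ± 0.891), and LTP4, a lipid transfer protein, 194 and 206 FPKM in salt and 2.34 and 1.97 in control (6.00 ± 0.776). HSFA6B, a heat shock factor induced by abscisic acid, had 126 and 130 FPKM in salt and 1.14 and 0.729 in control (6.07 ± 0.178). TSPO, a membrane protein for tetrapyrrole binding that abscisic acid induces, had 57.8 and 63.5 FPKM in salt and 0.336 and 0.409 in control (5.49 ± 0.384). AT5G24640, AT3G03341 and AT3G56275 complete the 10 largest rises and have no well-known role; they rose by 5.87 ± 0.109, 5.48 ± 0.243 and 5.29 ± 0.324 log2 units, in that order.

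The 250 bases upstream of the annotated start were read from the TAIR10.1 sequence of RefSeq for genes whose response the abscisic acid pathway is known for, and for an antenna gene that fell. They are LEA4-5 (chr5:2090431-2090680, minus strand), LEA7 (chr1:19619474-19619723, plus strand), the PP2C gene HAI2 (chr1:2282829-2283078, minus strand) and LHCB1.1 (chr1:10475970-10476219, minus strand), each printed 5′ to 3′ with the ABRE in capitals (ACGTGNC, or GNCACGT for the other strand).
LEA4-5: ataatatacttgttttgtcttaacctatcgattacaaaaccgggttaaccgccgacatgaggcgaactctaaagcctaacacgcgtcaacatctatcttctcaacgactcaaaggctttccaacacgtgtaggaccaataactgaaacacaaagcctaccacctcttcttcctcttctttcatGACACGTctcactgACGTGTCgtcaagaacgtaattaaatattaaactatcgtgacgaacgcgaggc
LEA7: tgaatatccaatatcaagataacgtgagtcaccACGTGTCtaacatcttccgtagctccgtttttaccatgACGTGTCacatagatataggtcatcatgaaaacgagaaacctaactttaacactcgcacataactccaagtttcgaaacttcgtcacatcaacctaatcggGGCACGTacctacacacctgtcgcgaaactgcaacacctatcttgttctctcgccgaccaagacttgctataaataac
HAI2: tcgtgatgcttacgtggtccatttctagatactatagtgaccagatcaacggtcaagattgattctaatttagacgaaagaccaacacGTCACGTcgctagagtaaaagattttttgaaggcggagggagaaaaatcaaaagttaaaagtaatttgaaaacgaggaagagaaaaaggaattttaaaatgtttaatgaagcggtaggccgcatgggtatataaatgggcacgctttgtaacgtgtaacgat
LHCB1.1: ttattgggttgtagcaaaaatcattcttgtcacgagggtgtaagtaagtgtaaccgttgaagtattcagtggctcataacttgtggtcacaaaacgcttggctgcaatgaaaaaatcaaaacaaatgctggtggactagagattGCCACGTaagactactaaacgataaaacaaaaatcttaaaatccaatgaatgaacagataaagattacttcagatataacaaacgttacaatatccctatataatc
LEA4-5 holds 2 matches, at −67 and −53 from the start, LEA7 holds 3 between −217 and −78, and HAI2 holds 1 at −162. LHCB1.1, the gene with the largest fall, holds 1 as well, at −106. LHB1B1 and LHCB2.3, also among the 10 largest falls, hold 1 each. RD20 holds none in this window. Nor do AT3G02480, HSFA6B, LTP4, AT5G24640, TSPO, AT3G03341 and AT3G56275 of the 10 largest rises, or NCED3 and P5CS1. All printed genes hold a match, so they do not stand for the largest rises. A match thus does not go with the direction gene by gene. Over all promoters a difference in shares is seen: the ABRE stood in 118 of 555 promoters of genes that rose at least 4-fold (21.3%), in 285 of 1775 of those that rose at least 2-fold (16.1%), in 1904 of 19662 of all protein-coding genes tested (9.68%) and in 8.4% of the 238 that fell at least 4-fold. The GC share of these promoters was alike (31.9% for rises of at least 4-fold, 31.4% for all and 30.6% for falls of at least 4-fold). The dehydration element core CCGAC stood in 16.4% of promoters of genes that rose at least 4-fold and 13% of all. The evening element AAATATCT, which clock proteins bind, stood in 7.98% of promoters of genes that fell at least 4-fold, 8.18% of the 1112 that fell at least 2-fold, 6.49% of those that rose at least 4-fold, 5.35% of those that rose at least 2-fold and 5.04% of all. Both strands were searched for each motif, matches of different motifs could overlap, and these shares are descriptions.

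Every measured member of the list of abscisic acid and osmotic stress markers rose: 22 of 22, with a median difference of 2.88 against 0.03 for all genes. RD29A, a hydrophilic stress protein and a standard reporter of the pathway, had 578 and 670 FPKM in salt, against 17.7 and 16.2 FPKM in control (5.12 ± 0.129, adjusted p = 4.95e-09). COR15A, a chloroplast protein that protects membranes, had 1907 and 2102 FPKM in salt, against 160 and 176 FPKM in control (3.57 ± 0.187). As a share of all FPKM the list took up 1.58% and 1.63% in salt, against 0.281% and 0.27% in control.

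The parts of the abscisic acid pathway moved in different directions. All 8 measured clade A PP2C genes, which encode its brakes and are themselves induced by the hormone, rose (median 2.76). HAI2 had 27.7 and 35.9 FPKM in salt, against 0.361 and 0.573 FPKM in control (4.48 ± 0.223, adjusted p = 1.74e-07), and ABI1 had 147 and 177 FPKM in salt, against 24.2 and 23.6 FPKM in control (2.7 ± 0.0941). Of 14 receptor genes 9 passed the filter; 5 fell, 1 rose and 3 did not pass (median −1.05). PYL4 had 16.5 and 15.6 FPKM in salt, against 178 and 191 FPKM in control (−3.45 ± 0.166, adjusted p = 1.44e-07), whereas PYL7 had 25.5 and 27.7 FPKM in salt and 12.3 and 10.5 in control (1.15 ± 0.16). Brakes were thus higher and most measured receptors lower in salt. SnRK2 kinases and ABF factors were split, 6 higher, 6 lower and 2 not called; SNRK2.8 rose (23.1 and 29.2 FPKM in salt, 2.93 and 2.92 in control; 2.78 ± 0.144), and SNRK2.3, one of the 3 kinases most tied to abscisic acid, fell (34.8 and 36.5 FPKM in salt, 59.3 and 56.6 in control; −0.69 ± 0.095). Of 10 measured genes of abscisic acid synthesis and breakdown 8 rose and none fell (median 1.33); NCED3, the rate-limiting synthesis enzyme under drought, had 16.2 and 16.7 FPKM in salt, against 1.71 and 1.62 FPKM in control (2.71 ± 0.246, adjusted p = 9.19e-06).

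Cold and drought regulators of the CBF and DREB list rose in 10 of 10 measured members (median 2.64). ZAT12, a zinc finger repressor, had 106 and 93.3 FPKM in salt and 6.08 and 6.64 in control (3.77 ± 0.185), and CBF1, an activator of cold genes, 12.7 and 11.7 FPKM in salt and 0.0655 and 0.182 in control (3.55 ± 0.135). Stress WRKY factors rose in 12 of 13 (median 1.5), led by WRKY46 at 24.6 and 20.9 FPKM in salt and 2.67 and 2.78 in control (2.67 ± 0.155).

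**Figure D2:**
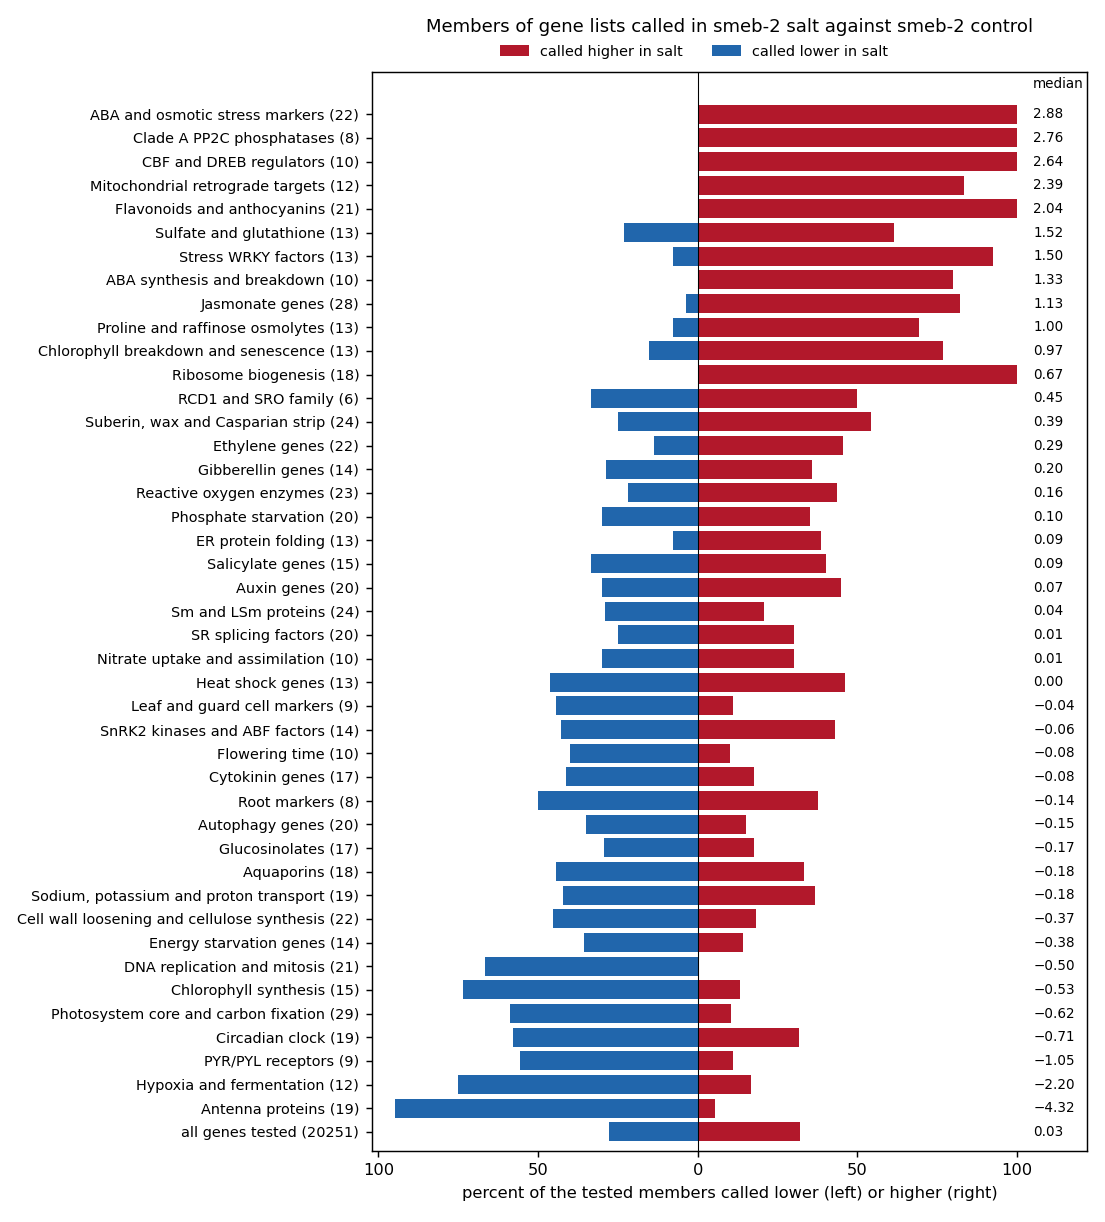
For each gene list (number of measured members in brackets) red bars give the percent called higher and blue bars the percent called lower in salt-treated than in control smeb-2; the bottom row holds all 20251 genes (32.0% higher, 27.7% lower). Abscisic acid markers, PP2C, CBF and DREB, flavonoid and ribosome biogenesis lists were called higher in all measured members.

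Genes for moving sodium, potassium and water showed no shared direction. In the sodium, potassium and proton list 7 rose, 8 fell and 4 did not pass (median −0.18), and with either smeb-2 control library left out those that fell no longer outnumbered those that rose. SOS1, the exchanger that expels sodium at the plasma membrane, had 10.2 and 10.5 FPKM in salt and 9.1 and 9.41 in control (0.15 ± 0.0823, adjusted p = 0.15). NHX1, which stores sodium in the vacuole, had 75 and 89.7 FPKM in salt, against 35.5 and 34.1 in control (1.21 ± 0.0783, adjusted p = 9.32e-07). HKT1, which retrieves sodium from the xylem, had 0.229 and 0.303 FPKM in salt, against 1.77 and 1.94 in control (−1.17 ± 0.121). The vacuolar calcium exchanger CAX3 rose (52.9 and 59.6 FPKM in salt, 16.1 and 13.9 in control; 1.84 ± 0.141), and CBL10, a calcium sensor that recruits the SOS2 kinase in shoots, fell (14.0 and 12.7 FPKM in salt, 33.2 and 33.9 in control; −1.27 ± 0.0972). The vacuolar sodium exchanger was thus higher in salt, while the exporter did not pass the threshold. Among 18 aquaporins 6 rose and 8 fell (median −0.18), with PIP1;4 at 393 and 417 FPKM in salt and 155 and 162 in control (1.35 ± 0.0741) and PIP1;5 at 50.8 and 53.4 FPKM in salt and 165 and 161 in control (−1.63 ± 0.0703).

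Osmolyte genes mostly rose (9 higher, 1 lower, 3 not called; median 1.0). P5CS1, the enzyme that commits glutamate to proline, had 311 and 353 FPKM in salt, against 35.7 and 33.5 FPKM in control (3.22 ± 0.108, adjusted p = 1.88e-08). ERD5, which degrades proline, had 48.6 and 55.3 FPKM in salt, against 71.4 and 80.1 FPKM in control (−0.54 ± 0.183, adjusted p = 0.0283), a call lost without any one of the 4 libraries (between −0.63 and −0.45). The synthesis gene P5CS1 was thus higher and the breakdown gene ERD5 lower in salt. GOLS2, which starts raffinose synthesis, had 20.5 and 23.2 FPKM in salt and 4.95 and 4.91 in control (1.94 ± 0.156).

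Enzymes for reactive oxygen were divided, 10 higher, 5 lower and 8 not called. The catalases went opposite ways: catalase 2 (AT4G35090) had 698 and 771 FPKM in salt, against 138 and 137 FPKM in control (2.41 ± 0.0763), and catalase 3 (AT1G20620) had 499 and 477 FPKM in salt, against 2226 and 1969 FPKM in control (−2.10 ± 0.152). Targets of mitochondrial retrograde signalling, the pathway that RCD1 restrains, rose in 10 of 12 and fell in none (median 2.39). UGT74E2, a glucosyltransferase for an auxin precursor, had 88.9 and 108 FPKM in salt, against 3.3 and 2.39 FPKM in control (4.70 ± 0.404). AOX1A, the alternative oxidase of mitochondria, had 207 and 221 FPKM in salt, against 36.2 and 32.5 FPKM in control (2.61 ± 0.0845, adjusted p = 1.57e-08). In the RCD1 and SRO family 3 of 6 rose, 2 fell and 1 did not pass; SRO5 had 11.3 and 13.4 FPKM in salt and 4.78 and 7.15 in control (0.95 ± 0.185).

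Hormone pathways other than abscisic acid differed in how far they moved. Jasmonate genes rose in 23 of 28 and fell in 1 (median 1.13), while 32.0% of all genes rose. The members were chosen with earlier results of these data known, so this excess is a description only. LOX2, which starts jasmonate synthesis in the chloroplast, had 1294 and 1379 FPKM in salt, against 133 and 109 FPKM in control (3.47 ± 0.219). MYC2, the master transcription factor, had 57.7 and 51.5 FPKM in salt, against 11.6 and 12.1 FPKM in control (2.11 ± 0.0724), and VSP1, a storage protein under its control, had 174 and 169 FPKM in salt and 10.5 and 12.0 in control (3.82 ± 0.273). PDF1.2, a defensin of the branch driven by jasmonate and ethylene together, was the member that fell, to 4.24 and 3.96 FPKM in salt, against 22.3 and 15.0 FPKM in control (−1.92 ± 0.48, adjusted p = 0.00623). Ethylene genes were mixed (10 higher, 3 lower, 9 not called): ACS2, a synthase of the ethylene precursor, had 24.9 and 25.4 FPKM in salt and 0.675 and 0.643 in control (3.98 ± 0.105), and ACC oxidase 1 (AT2G19590), the last step, 2.13 and 2.54 FPKM in salt and 16.8 and 26.8 in control (−2.74 ± 0.23).

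Auxin genes were called higher in 9 and lower in 6 of 20, and this majority was lost without 1 smeb-2 control library; GH3.3, which conjugates auxin to amino acids, had 91.3 and 94.3 FPKM in salt and 4.63 and 3.62 in control (4.20 ± 0.155). Cytokinin genes were higher in 3 and lower in 7 of 17, with the receptor HK2 at 7.3 and 8.1 FPKM in salt and 14.9 and 17.7 in control (−0.99 ± 0.0984). For gibberellin, 5 of 14 rose (35.7%) and 4 fell (28.6%), near the 32.0% and 27.7% of all genes. GA2OX6, which inactivates the hormone, had 13.7 and 15.6 FPKM in salt and 3.5 and 2.56 in control (1.97 ± 0.114). GASA6, which the hormone induces, had 41.5 and 43.2 FPKM in salt and 433 and 480 in control (−3.40 ± 0.21). Salicylate genes were higher in 6 (40%) and lower in 5 (33.3%) of 15, against 32.0% and 27.7% of all genes (median 0.09). Their libraries stood apart within groups: the list summed to 503 and 360 FPKM in salt and to 817 and 390 FPKM in control, and none of the 15 members in salt and 1 of them in control was higher in library 1 than in library 0. The median was 0.61 without control library 0 and −0.19 without salt library 0.

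The antenna genes of the photosystems had the lowest median of the 44 lists, −4.32. Of 19 members 18 were called lower and 1 higher. LHCB1.1, a chlorophyll-binding protein of the main antenna of photosystem II, had 18.3 and 16.3 FPKM in salt, against 1721 and 1517 FPKM in control (−6.47 ± 0.284, adjusted p = 8.28e-08), the largest fall of any gene. LHCB3, a subunit of the same antenna trimers, had 95.9 and 84.9 FPKM in salt, against 3895 and 3570 FPKM in control (−5.35 ± 0.0796, adjusted p = 5.31e-10). LHCB2.2 had 30.4 and 26.4 FPKM in salt, against 1390 and 1281 FPKM in control (−5.51 ± 0.132). LHCB1.3, the most abundant member, kept more of its transcript, with 2527 and 2327 FPKM in salt, against 13065 and 14137 FPKM in control (−2.49 ± 0.0869), and it was not called when genes below the filter were added (adjusted p = 0.0663), and its difference was −1.3 with quantile normalization. LHCB1.2, LHB1B1, LHB1B2 and LHCB2.3 fell by between 5.32 and 6.02 log2 units, although near-identical LHCB1 and LHCB2 copies share reads and their single values are uncertain. LHCB4.3, an antenna subunit made under strong light, was the member that rose (95.7 and 102 FPKM in salt, 25.8 and 25.8 in control; 1.90 ± 0.128). Together the antenna genes took up 1.0% and 0.94% of all FPKM in salt, against 7.69% and 7.63% in control.

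Other chloroplast functions fell less. Photosystem core and carbon fixation genes fell in 17 and rose in 3 of 29 (median −0.62), and took up 6.66% and 6.91% of FPKM in salt, against 9.06% and 9.26% in control. PSBQ-2, of the oxygen-evolving complex, had 469 and 443 FPKM in salt, against 2520 and 2418 FPKM in control (−2.43 ± 0.0801). The small subunit of Rubisco behaved otherwise: RBCS1A, the highest gene in all 4 libraries, had 12188 and 12817 FPKM in salt and 13748 and 14603 in control (−0.18 ± 0.113, adjusted p = 0.191), and RBCS1B had 3083 and 3410 FPKM in salt, against 1157 and 1340 FPKM in control (1.38 ± 0.109, adjusted p = 3.66e-06). Reads of these near-identical copies can be split in either way. Chlorophyll synthesis fell in 11 and rose in 2 of 15 (median −0.53): PORB, the light-dependent reductase, had 222 and 192 FPKM in salt and 921 and 882 in control (−2.12 ± 0.0774), while the regulator GUN4 had 84.5 and 82.4 FPKM in salt and 70.8 and 63.7 in control (0.31 ± 0.0907, adjusted p = 0.0142), a call lost without control library 1 or salt library 0 (0.23 and 0.29) and with quantile normalization (0.26). Chlorophyll breakdown and senescence genes rose in 10 of 13 (median 0.97), among them SWEET15, a sucrose exporter of senescing leaves, with 58.2 and 66.8 FPKM in salt and 1.64 and 2.56 in control (4.37 ± 0.237).

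PIF4, a light- and heat-regulated factor that drives stem elongation, was among the 10 largest falls, with 0.721 and 0.858 FPKM in salt, against 76.6 and 76.8 FPKM in control (−5.44 ± 0.155, adjusted p = 8.94e-09). AT3G55240, of unknown function, fell by 4.92 ± 0.377, and AT1G15125, a methyltransferase, by 4.89 ± 0.317. Clock genes fell in 11 and rose in 6 of 19 (median −0.71). PRR7, a daytime repressor, had 2.17 and 1.83 FPKM in salt, against 67.3 and 71.4 FPKM in control (−4.55 ± 0.18), and GI, of the afternoon, 3.53 and 3.22 FPKM in salt, against 43.7 and 46.6 in control (−3.40 ± 0.101). The morning gene LHY was higher in salt, at 2.03 and 1.84 FPKM, against 0.229 and 0.143 FPKM in control (1.31 ± 0.122). These genes cycle over the day, and the hour of harvest of the controls is the uncertainty given above, so hour and salt cannot be told apart for them. The same limit holds for PIF4, the antenna genes and every other difference between salt and control given here.

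DNA replication and mitosis genes fell in 14 of 21 and rose in none (median −0.50), against 27.7% lower and 32.0% higher among all genes, with the mitotic kinase AUR1 at 6.02 and 5.38 FPKM in salt and 13.9 and 11.9 in control (−1.05 ± 0.151). Cell wall genes fell in 10 and rose in 4 of 22 (median −0.37), and expansins, which loosen walls, showed both extremes: EXPA8 had 1.05 and 0.898 FPKM in salt, against 29.8 and 25 FPKM in control (−3.84 ± 0.0994), and EXPA10 had 501 and 570 FPKM in salt, against 22.6 and 23.5 FPKM in control (4.48 ± 0.114). In contrast, ribosome biogenesis genes rose in 18 of 18 by small amounts (median 0.67); AT5G27120, a NOP56-like nucleolar protein, had 48.4 and 45.5 FPKM in salt and 23.4 and 21.5 in control (1.03 ± 0.0638).

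**Figure D3:**
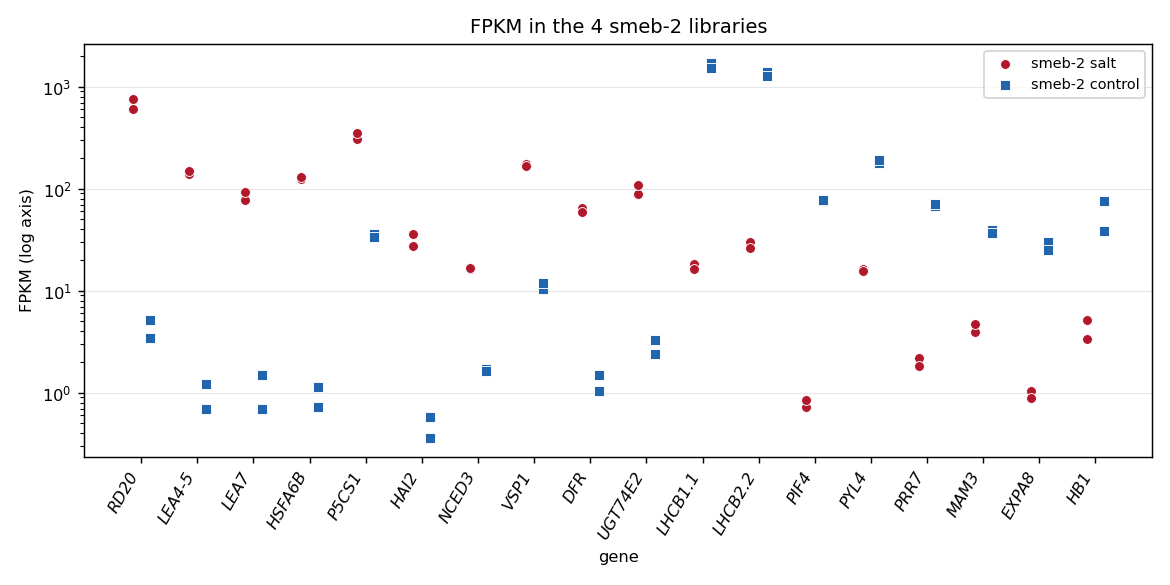
FPKM of selected genes in each of the 4 smeb-2 libraries on a log axis, salt-treated beside control. Genes from RD20 to UGT74E2 lie higher in salt and genes from LHCB1.1 to HB1 lower, with no overlap; RD20 had 604 and 765 FPKM in salt, against 5.22 and 3.43 FPKM in control.

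Flavonoid and anthocyanin genes rose in 21 of 21 (median 2.04), and their summed level was 1137 and 1205 FPKM in salt, against 297 and 304 FPKM in control. DFR, the first enzyme committed to anthocyanin, had 65.2 and 59.4 FPKM in salt, against 1.49 and 1.03 FPKM in control (4.81 ± 0.221, adjusted p = 1.06e-07), and LDOX, the next enzyme, 54.3 and 56.0 FPKM in salt, against 1.44 and 1.18 in control (4.60 ± 0.174). Regulators and enzymes of the pathway were higher alike. Sulfate and glutathione genes rose in 8 and fell in 3 of 13 (median 1.52): APR3, which reduces activated sulfate, had 206 and 222 FPKM in salt and 30.9 and 23.6 in control (2.94 ± 0.135), and SDI1, a marker of sulfur shortage, 38.1 and 43.5 FPKM in salt and 2.91 and 2.08 in control (3.59 ± 0.234). Glucosinolate genes were higher in 3 and lower in 5 of 17; MAM3, of side-chain elongation, had 3.93 and 4.75 FPKM in salt and 39.8 and 36.8 in control (−2.88 ± 0.116). Nitrate genes were higher in 3 and lower in 3 of 10 (30% each), near the 32.0% and 27.7% of all genes. The uptake transporter NRT2.1 had 11.2 and 9.48 FPKM in salt and 0.0965 and 0.0592 in control (3.39 ± 0.24), and NRT1.5, which loads nitrate into the xylem, 10.6 and 10.2 FPKM in salt and 42.3 and 49.4 in control (−2.04 ± 0.149).

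Phosphate starvation genes were mixed, 7 higher, 6 lower and 7 not called (median 0.10). PAP17, an acid phosphatase, had 138 and 151 FPKM in salt, against 20.4 and 14.3 FPKM in control (3.0 ± 0.215), and PHO1, which loads phosphate into the xylem, 14.9 and 12.8 FPKM in salt and 21.2 and 25 in control (−0.70 ± 0.108). Genes of the low-oxygen response fell in 9 and rose in 2 of 12 (median −2.20). HRE2 rose, with 15.0 and 13.2 FPKM in salt and 2.99 and 5.11 in control (1.61 ± 0.267). PDC1, pyruvate decarboxylase of ethanol fermentation, had 5.61 and 5.07 FPKM in salt, against 29.2 and 54.3 FPKM in control (−2.69 ± 0.252, adjusted p = 1.16e-05), and SUS4, a sucrose synthase of the same response, 3.55 and 3.05 FPKM in salt, against 18.4 and 35.4 in control (−2.63 ± 0.244). HB1, a non-symbiotic haemoglobin, had 5.13 and 3.39 FPKM in salt, against 38.8 and 75.3 FPKM in control (−3.41 ± 0.39). The 2 control libraries were unlike here: all 12 members were higher in one of them than in the other, and the list summed to 223 and 230 FPKM in salt, against 266 and 440 FPKM in control. None of the falls named here lost its call without that library.

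Of 24 Sm and LSm genes 5 rose (20.8%), 7 fell (29.2%) and 12 did not pass (median 0.04), near the 32.0% and 27.7% of all genes. The list includes LSM8, of the nuclear LSm ring on the U6 small nuclear RNA, at 34.3 and 32.1 FPKM in salt and 22.8 and 21.0 in control (0.58 ± 0.109) and LSM7 at 45.5 and 44.7 FPKM in salt and 68.8 and 67.9 in control (−0.59 ± 0.0541). SmEb itself had the largest fall of the list. Of 20 SR splicing factors 6 rose (30%) and 5 fell (25%), also near the shares of all genes and a majority that other scalings turned round; SR34B had 5.02 and 5.18 FPKM in salt, against 17.3 and 17.2 FPKM in control (−1.58 ± 0.0923), and its relative SR34A 68.2 and 64.2 FPKM in salt and 41.5 and 42.7 in control (0.64 ± 0.0737). Heat shock genes rose in 6 and fell in 6 of 13, with HSP90.1 at 14.9 and 13.2 FPKM in salt and 100 and 101 in control (−2.75 ± 0.116). HSP22.0 rose, with 15.7 and 10.3 FPKM in salt and 0.0311 and 0.0584 in control (3.72 ± 0.405). Genes of protein folding in the endoplasmic reticulum rose in 5 and fell in 1 of 13, with the stress factor BZIP60 at 70.8 and 71.1 FPKM in salt and 29.8 and 29.1 in control (1.24 ± 0.0688).

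Suberin, wax and Casparian strip genes rose in 13 and fell in 6 of 24; CASP2, which anchors the Casparian strip of the root, had 1.52 and 1.42 FPKM in salt and 10.3 and 10.3 in control (−2.19 ± 0.126). Autophagy genes rose in 3 and fell in 7 of 20, with ATG8E at 67.5 and 76.1 FPKM in salt and 137 and 123 in control (−0.85 ± 0.239), a call lost without control library 0 or salt library 0 (−0.77 in both cases). Energy starvation genes rose in 2 and fell in 5 of 14; AT2G33830, a dormancy-associated protein, had 98.1 and 118 FPKM in salt, against 945 and 1056 FPKM in control (−3.20 ± 0.321). Flowering genes rose in 1 and fell in 4 of 10, among them the repressor MAF2 at 10.5 and 10.2 FPKM in salt and 19.8 and 19.1 in control (−0.85 ± 0.0995). Root markers rose in 3 and fell in 4 of 8, leaf and guard cell markers rose in 1 and fell in 4 of 9, and 2 of 4 measured seed storage markers rose. The root endodermis factor SCR had 23.9 and 23.1 FPKM in salt and 12.3 and 13.3 in control (0.83 ± 0.0704), and the leaf polarity factor AS1 29.2 and 28.9 FPKM in salt and 17.1 and 18.5 in control (0.68 ± 0.106). Other members fell. PIN2, of the root list, had 7.09 and 6.47 FPKM in salt and 8.5 and 11.6 in control (−0.49 ± 0.181). Its call was lost without control library 1 or either salt library (between −0.55 and −0.29). FIL, of the leaf list, had 18.3 and 15.3 FPKM in salt and 22.8 and 22.9 in control (−0.43 ± 0.0943). Seed storage markers stayed low, with a summed level of 3.63 and 4.98 FPKM in salt and 3.59 and 11.4 in control.

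The salt responses of smeb-2 and Col-0 were measured on separate libraries. In Col-0 61.8% of genes were called (34.1% higher, 27.7% lower) and in smeb-1 57.8% (31.0% higher, 26.8% lower). Of the genes that rose in smeb-2, 5431 also rose in Col-0, which is 83.8% of the rises in smeb-2 and 78.6% of those in Col-0; of the genes that fell, 4341 did so in both (77.5% of smeb-2, 77.4% of Col-0). Across the 20251 genes, which are not independent replicates and share the FPKM scaling, the 2 responses had a Pearson correlation of 0.881. The difference between the responses passed for 1186 genes (5.86%), with smeb-2 above Col-0 for 857 (4.23%) and below it for 329 (1.62%). This count moved with the libraries: it was 580 without smeb-2 salt library 0, 616 without smeb-2 salt library 1, 693 without smeb-2 control library 0 and 455 without smeb-2 control library 1. Without a Col-0 library it was 3684 (salt 0), 1466 (salt 1), 671 (control 0) and 504 (control 1). Of the 857 positive genes 265 rose in both genotypes, 229 fell in both and 78 rose in smeb-2 but fell in Col-0. Of the 329 negative genes 94 rose in both, 78 fell in both and 23 fell in smeb-2 but rose in Col-0.

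**Figure D4:**
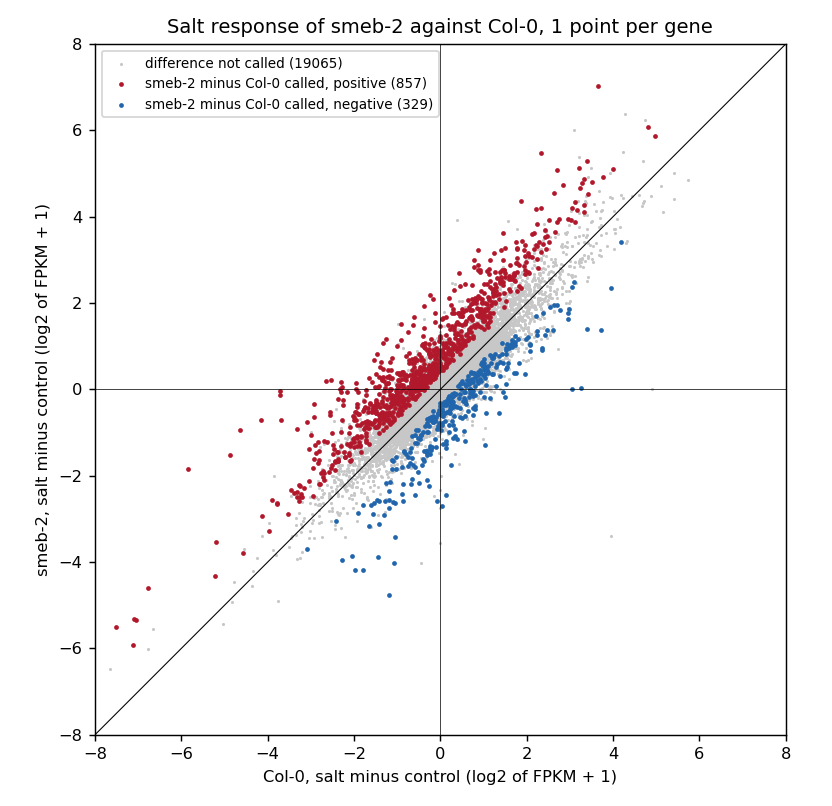
Each point is a gene, with its salt response in Col-0 on the x axis and in smeb-2 on the y axis, both as differences of log2(FPKM + 1). Red points are the 857 genes with a called positive difference, above the diagonal of equal response, blue points the 329 with a negative one, and grey points all others.

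For most of the genes with a difference the larger gap between the genotypes lay in the untreated seedlings, as a comparison of mean levels with no test. The level difference between smeb-2 and Col-0 was larger in size in control than in salt for 594 of the 857 positive genes (69.3%) and for 211 of the 329 negative ones (64.1%), against 49.3% of all genes tested. The positive genes had a median level difference, smeb-2 minus Col-0, of 0.21 in salt and −0.64 in control, and the negative genes −0.24 in salt and 0.43 in control. RD20 illustrates the first kind: Col-0 had 655 and 672 FPKM in salt and 53.0 and 51.9 in control, so that the salt libraries overlapped and the control level was lower in smeb-2 (difference in response 3.38 ± 0.268, adjusted p = 0.000273). P5CS1 in Col-0 had 319 and 283 FPKM in salt and 123 and 104 in control (difference in response 1.82 ± 0.153, adjusted p = 0.000346). HAI1, a PP2C, had 60.9 and 66.5 FPKM in salt and 2.64 and 1.67 in control smeb-2, and 90.2 and 50.5 FPKM in salt and 19.9 and 16.1 in control Col-0 (2.52 ± 0.346, adjusted p = 0.00375). For GOLS2 Col-0 held 31.2 and 24.2 FPKM in salt and 37.8 and 35.0 in control, without the rise seen in smeb-2 (2.33 ± 0.22, adjusted p = 0.000502). ERD5 went the other way, with 49.9 and 64.8 FPKM in salt and 22.5 and 21.1 in control Col-0 (−1.88 ± 0.259, adjusted p = 0.00375). Of the 22 abscisic acid markers 7 had a called positive difference, against 4.23% of all genes. Members of this list and of those below were chosen with earlier results known, so such contrasts with all genes are descriptions only. That count lay between 3 and 8 under other settings and with single libraries left out. Their median level difference, smeb-2 minus Col-0, was −0.47 in salt and −0.70 in control. The list summed to 12040 and 12624 FPKM in salt-treated smeb-2, against 16307 and 15704 FPKM in salt-treated Col-0. In control it summed to 2353 and 2294 FPKM in smeb-2, against 4378 and 4320 FPKM in Col-0.

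In the phosphate starvation list the genotypes responded differently. Of its 20 members 15 had a positive difference (median 1.43), a count between 13 and 16 under every setting and with any library left out, against 4.23% of all genes. In Col-0 13 of the 20 fell in salt (median −1.22), and the list summed to 634 and 516 FPKM in salt and 1051 and 992 in control Col-0, against 497 and 541 FPKM in salt and 292 and 289 in control smeb-2. AT1G73010, a pyrophosphatase, had 7.42 and 6.52 FPKM in salt and 7.08 and 8.47 in control smeb-2 (−0.14 ± 0.136, adjusted p = 0.409), whereas Col-0 had 8.96 and 6.62 FPKM in salt and 116 and 111 in control (difference in response 3.58 ± 0.193, adjusted p = 6.39e-05). SPX3, a phosphate sensor, had 0.137 and 0.0688 FPKM in salt and 0.726 and 0.868 in control smeb-2, against 0.331 and 0.295 FPKM in salt and 20.5 and 24.2 in control Col-0 (3.44 ± 0.175, adjusted p = 6.39e-05). For SPX1, a related sensor, smeb-2 had 47.6 and 53.4 FPKM in salt and 24.0 and 23.1 in control, and Col-0 75.7 and 44.5 FPKM in salt and 147 and 146 in control (2.39 ± 0.292). In each of these genes the genotypes stood close together in salt and far apart in control. The smeb-1 response resembled that of smeb-2 (7 of 20 higher, 7 lower, median 0.04).

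Low-oxygen genes showed the reverse: 10 of 12 had a negative difference (median −1.40), against 1.62% of all genes. That count fell to 2 without Col-0 control library 1 or with genes below the filter added. It was 3 without Col-0 control library 0, smeb-2 control library 1 or smeb-2 salt library 0, and 6 in a fit of the groups compared alone. ADH1, alcohol dehydrogenase, had 61.7 and 67.6 FPKM in salt and 45.6 and 86.4 in control smeb-2 (0.04 ± 0.247, adjusted p = 0.899), while Col-0 had 101 and 125 FPKM in salt and 11.6 and 10.3 in control (difference in response −3.21 ± 0.35, adjusted p = 0.00122). PDC1 in Col-0 had 3.36 and 2.82 FPKM in salt and 3.08 and 2.83 in control (−2.74 ± 0.356, adjusted p = 0.00299). The controls of smeb-1 were above those of Col-0 as well, with 47.6 and 56.6 FPKM for PDC1 and 70.6 and 89.5 FPKM for ADH1. AT4G39675, of unknown function, had 2.41 and 1.76 FPKM in salt and 63.2 and 107 in control smeb-2, against 5.59 and 5.83 FPKM in salt and 14.6 and 14.0 in control Col-0 (−3.58 ± 0.283). TH8, a thioredoxin, had 19.1 and 18.2 FPKM in salt and 18.1 and 19.0 in control smeb-2, against 20.6 and 38.8 FPKM in salt and 2.43 and 2.72 in control Col-0 (−3.03 ± 0.323).

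Most antenna genes fell less in smeb-2 than in Col-0, with a median level difference, smeb-2 minus Col-0 on log2(FPKM + 1), of 0.65 in salt and −0.24 in control. Of 19 members 13 had a positive difference, against 4.23% of all genes (median 0.95; between 7 and 17 over the settings and single libraries left out), and the median response was −4.32 in smeb-2, −3.90 in smeb-1 and −5.19 in Col-0. The level difference between smeb-2 and Col-0 was larger in control than in salt for 1 of the 19. LHCB2.2 had 30.4 and 26.4 FPKM in salt-treated smeb-2, against 8.78 and 12.1 FPKM in salt-treated Col-0, and 1390 and 1281 FPKM in control smeb-2, against 2095 and 2053 FPKM in control Col-0 (difference in response 2.01 ± 0.186, adjusted p = 0.00049). LHCB3 in Col-0 had 37.4 and 33.7 FPKM in salt and 4702 and 4919 in control (1.69 ± 0.113, adjusted p = 0.000195). All antenna transcripts together summed to 7645 and 7301 FPKM in salt-treated smeb-2, against 4979 and 4975 FPKM in salt-treated Col-0. In control they summed to 64499 and 64689 FPKM in smeb-2, against 78418 and 77342 FPKM in Col-0.

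Many jasmonate genes responded more positively in smeb-2 than in Col-0. Of 28 members 15 had a positive difference, against 4.23% of all genes (median 0.85). That count lay between 6 and 16 over the settings and single libraries left out. The median level difference, smeb-2 minus Col-0, was −0.03 in salt and −0.59 in control. For 19 of the 28 it was larger in size in control. The list summed to 3839 and 3984 FPKM in salt-treated smeb-2. In salt-treated Col-0 the 2 libraries stood apart, at 3686 and 2501 FPKM. In control it summed to 879 and 793 FPKM in smeb-2, against 1302 and 1412 FPKM in Col-0. AOC1, of jasmonate synthesis, had 66.7 and 66.1 FPKM in salt and 34.4 and 25.6 in control smeb-2 (1.14 ± 0.14), whereas Col-0 had 48.4 and 38.1 FPKM in salt and 81.7 and 82.6 in control (difference in response 2.06 ± 0.199, adjusted p = 0.000579). MYC2 in Col-0 had 38.7 and 36.2 FPKM in salt and 19.1 and 19.6 in control (1.20 ± 0.102, adjusted p = 0.000372). AOX1A, the retrograde target, differed by the same amount, with 114 and 128 FPKM in salt and 45.5 and 44.6 in control Col-0 (1.20 ± 0.119, adjusted p = 0.000661).

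**Figure D5:**
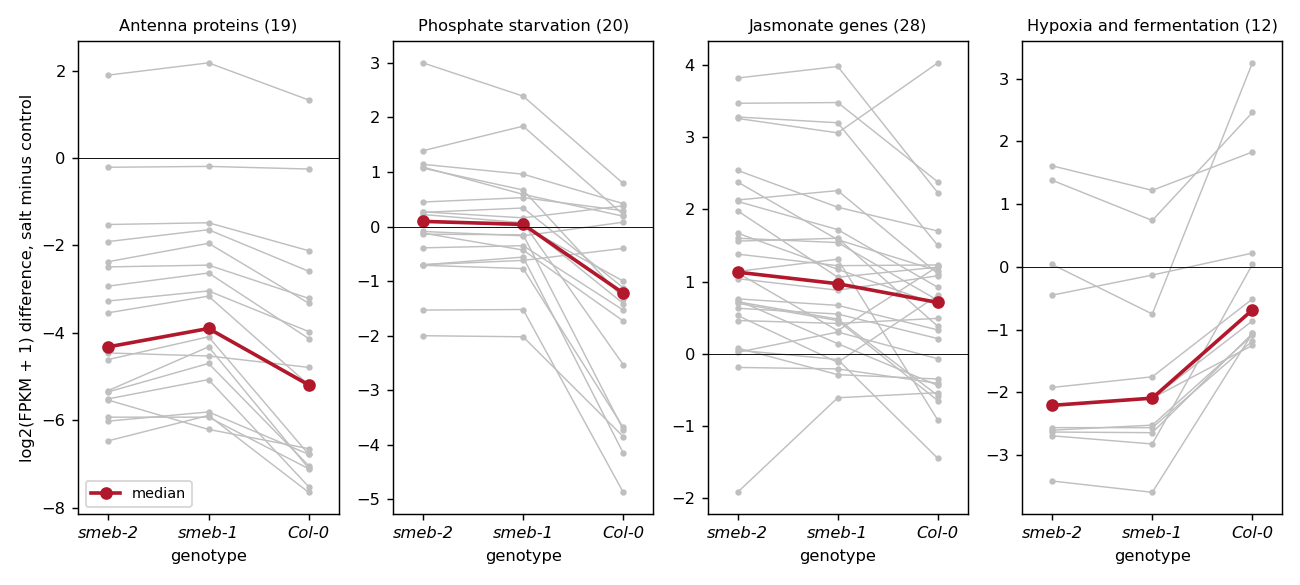
Salt response, as difference of log2(FPKM + 1), of each member of 4 gene lists (grey lines) and their median (red) in smeb-2, smeb-1 and Col-0. The phosphate medians are 0.10, 0.04 and −1.22 and the hypoxia medians −2.20, −2.09 and −0.68, in that order of genotypes.

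Between the 2 smeb lines few differences in response passed, and their number depended on the setting. Of the rises in smeb-2, 5480 were shared with smeb-1 (84.5% of smeb-2, 87.4% of smeb-1), and the correlation across genes was 0.946. By limma 1 of 20251 genes (0.00494%) passed for a difference, and 1818 (8.98%) had an unadjusted p under 0.05. With genes below the filter added 39 genes passed, and in a fit of the groups compared alone 43 did. The gene called in the fit of all groups, AT5G46900, a lipid-transfer-like protein, had 0.139 and 0 FPKM in salt and 13.2 and 17.0 in control smeb-2, against 0.104 and 0 FPKM in salt and 1.51 and 1.40 in control smeb-1 (−2.68 ± 0.263, adjusted p = 0.0344), and its call was lost with a pseudocount of 0.1 (−3.16) and on leaving out any one of 6 libraries (between −2.77 and −2.51). A value listed at 0 may also be a failed estimate. SmEb had 1.92 and 2.04 FPKM in salt-treated and 4.93 and 6.24 FPKM in control smeb-2, against 23.2 and 22.9 FPKM in salt-treated and 27.6 and 26.0 FPKM in control smeb-1, so the lines differed in SmEb in both treatments. A missed threshold with 2 libraries a group does not show that the lines responded alike.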

How the data were processed

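The table of FPKM per gene and library was deposited by the authors; per the submitters' processing notes, the tools were Trimmomatic 0.32 (trimming) and TopHat2 2.0.13 (alignment), on TAIR10. No source used here gives the program behind the FPKM, the annotation, the strand setting or the read totals. Columns headed smeb1-2 were read as smeb-2; their suffixes 0 and 1 are not tied to replicate numbers, and the deposited splicing and enrichment tables were not used. 0 columns were identical and 0 belonged to other series.

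Genes with at least 1 FPKM in 2 of 12 libraries were tested with limma 3.58.1 (trend) in R 4.3.3 on log2(FPKM + 1), a pseudocount of 1, with 1 mean for each of 6 groups and 6 residual degrees of freedom. p-values were adjusted by Benjamini-Hochberg and called under 0.05; residual spread thus came from all groups. The procedure was tested on simulated data. Differences in salt response are interaction contrasts of the same fit. Scaling by FPKM means that a fall of abundant genes raises all others.

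Lists (44, with 727 genes, 701 of them tested) and members were chosen with earlier results of these data known. Named genes are SmEb, SmEa, RCD1, the 10 largest rises and falls with a mean of at least 5 FPKM, the largest rise and fall of each list, and the 5 largest differences in response each way; 22 further genes, among them RD29A, SOS1, RBCS1A and AOC1, were chosen after their values were seen. Values are not printed for every gene that these rules pick. Names and positions came from the TAIR10.1 annotation of RefSeq (32817 IDs matched). Same-numbered columns were checked for pairing, and the numbers did not pair the libraries. Alternatives were 2 scalings, no filter, a pseudocount of 0.1, fits of fewer groups, a replicate block, leaving out each library, and a minimum fold of 2.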

Additional observations from a re-analysis of the deposited data

Results flagged for a closer look

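Results are given here because a test of the difference in salt response itself passed an adjusted p of 0.05 by limma; values are differences in response on log2(FPKM + 1), smeb-2 minus the other genotype. Against Col-0 1186 genes passed, and against smeb-1 1 gene, AT5G46900 (−2.68), did.

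Genes known from stress with a positive difference from Col-0 were RD20 (3.38), HAI1 (2.52), GOLS2 (2.33), P5CS1 (1.82), HSFA6B (1.26), AOX1A (1.20) and AT4G35090 (0.96). AT3G03341 (3.15), AT3G56275 (1.88) and AT5G24640 (0.91), which have no well-known role, had one too. Jasmonate and auxin genes with a positive difference were AOC1 (2.06), VSP1 (1.59), MYC2 (1.20) and GH3.3 (1.14). Phosphate genes were AT1G73010 (3.58), SPX3 (3.44), PEPC1 (3.34), SPX1 (2.39) and PAP17 (2.21). Chloroplast genes were LHCB2.2 (2.01), LHCB2.3 (1.78), LHCB3 (1.69), LHCB1.2 (1.18), GUN4 (1.08), PORB (0.92) and PSBQ-2 (0.79). Further positive differences were those of RD29A (1.91), CBF1 (1.09) and the antenna gene LHCB1.3 (0.72). The anthocyanin gene DFR (1.29), the phytochelatin synthase AT5G44070 (0.60) and PIP1;5 (0.43) had one too. Only named genes are listed, out of the 857 with a positive difference.

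Negative differences among low-oxygen genes and genes near them in size were AT4G39675 (−3.58), ADH1 (−3.21), TH8 (−3.03), AT2G17850 (−2.94), PDC1 (−2.74) and HB1 (−2.35). SUS4, of the low-oxygen response, had one as well (−1.57). Others were ERD5 (−1.88), AT2G19590 (−1.54), SmEb (−1.52), CASP2 (−1.51), SRO5 (−1.41) and AT5G27120 (−0.58); CASP2 belongs to the Casparian strip of the root. AT2G17850, annotated as rhodanese-like, had 0.2 and 0.399 FPKM in salt and 16.5 and 24.1 in control smeb-2, against 0.161 and 0.364 FPKM in salt and 1.23 and 2.16 in control Col-0. Leaving out single libraries ended some calls, with values then between 1.07 and 1.28 for HSFA6B, 1.64 and 2.13 for AT3G56275, 1.13 and 1.16 for LHCB1.2, 0.39 and 0.46 for PIP1;5, 1.5 and 1.68 for VSP1, 0.97 and 1.44 for DFR, 0.58 and 0.59 for AT5G44070, and 1.0 and 1.17 for GH3.3. For negative differences they were between −1.36 and −1.16 for SRO5, −1.63 and −1.22 for AT2G19590, −2.59 and −1.88 for HB1, and −2.77 and −2.51 for AT5G46900.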

How the results depend on the processing

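Of 170 named results (a gene in a comparison), 142 kept their direction and call under all alternatives other than the minimum fold, which left 32 uncalled. Salt calls numbered between 11534 and 12934 under other settings, 3001 with a minimum fold of 2, and between 9915 and 10174 with 1 library left out. The difference from Col-0 was called for 602 genes without the filter, 786 in a fit of the groups compared, 465 with a minimum fold of 2, and between 455 and 3684 with 1 library left out; without the 2 single salt-treated Col-0 libraries it was 3684 and 1466. The difference from smeb-1 was called for 39 genes without the filter, 43 in a fit of the groups compared, 0 with a pseudocount of 0.1, and between 0 and 5 with 1 library left out. With the column suffix as a replicate block the counts were 11966, 1089 and 0. For pairing, the difference between libraries 1 and 0 was taken per gene within each group. Across genes these differences correlated between −0.125 and 0.112 over 15 group pairs, so same-suffix libraries were not treated as pairs. Directions reversed only for salt responses near 0: TH8 (−0.03 with median-of-ratios scaling, −0.11 with quantile normalization, between −0.03 and 0.04 with 1 library left out), ADH1 (−0.02 with quantile normalization, between −0.41 and 0.49 with 1 library left out) and RBCS1A (0.00 with quantile normalization). Apart from fewer libraries or genes, the cause was not tested. Depth is unknown, which limits statements on genes near 1 FPKM.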

Other observations

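Gene families, of which the lists hold few or some members, were counted in salt-treated smeb-2 as well. They were taken by words in the annotated product, and the chloroplast genome by locus, so families can miss members or hold others. The UDP-glycosyltransferases counted, for example, leave out UGT74E2. Of 79 NAC factors, 44 rose and 5.06% fell; of 56 WRKY factors, 34 rose and 5.36% fell; of 107 UDP-glycosyltransferases, 64 rose and 13.1% fell, against 32.0% and 27.7% of all genes. Ribosomal proteins rose in 188 of 311 by small amounts (median 0.29), with 2 of them past a 2-fold rise, and 17.0% fell. Class III peroxidases of the cell wall fell in 55.9% of 59 and rose in 18.6% (median −0.48). SAUR proteins, which promote cell expansion, fell in 40.3% of 62 and rose in 24.2%. Kinesins and microtubule motors fell in 57.7% of 26 and rose in 15.4%. Transcripts of the chloroplast genome were called lower in 66.0% of 47 and higher in none (median −0.99).

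Genes with few introns were more often among the large changes. A rise of at least 2-fold was called in 14.9% of the 2860 protein-coding genes without introns, 11.8% of those with 1, 9.74% with 2 to 4, 6.78% with 5 to 9 and 4.06% of the 3302 with 10 or more. Falls of at least 2-fold followed the same order, with 9.37%, 6.94%, 6.26%, 3.84% and 3.24%. The order held for calls of a positive difference from Col-0 only in part, with 5.28% without introns, 6.13% with 1 and 1.79% with 10 or more.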
